A study of Mus musculus with 12 samples.

Results

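The transcripts of 10 mouse genes, of 48526 in the deposited tables, were followed through an autoimmune disease of the spinal cord: Bin1, Inpp5d, Plcg2, Abi3, Picalm, Sorl1, Abca7, Cass4, Ptk2b and Rin3. They were chosen by name, as mouse counterparts of human genes at loci that carry inherited risk of Alzheimer disease and that are active in microglia, the resident macrophages of the central nervous system. The choice was made with earlier results of these data known. RNA was sequenced from spinal cord cells that Biozzi ABH mice yielded in a sort for CD11b, an intermediate level of CD45 and no Ly-6C. The 12 libraries came from 3 control mice, 3 mice in the acute phase of chronic-relapsing experimental autoimmune encephalomyelitis (crEAE, an induced attack of the immune system on myelin), 3 in remission and 3 in the chronic phase. All groups were of the same strain, and the labels name no transgene or drug and do not say how the disease was induced or at what age. The p-values measure the spread between these mice.

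The 10 genes fall into 3 kinds of work in a microglial cell. Some carry or restrain signals below surface receptors that pair with adaptors bearing an immunoreceptor tyrosine-based activation motif (ITAM), such as TREM2 with TYROBP: the kinase SYK then recruits phospholipase C gamma 2, made from Plcg2, while the phosphatase SHIP1, made from Inpp5d, removes the lipid on which the same signal depends. Others shape membrane on its way into the cell and through endosomes, or move lipid across it, and human studies of these genes centre on the handling of amyloid precursor protein and lipids. The remainder link adhesion to the actin cytoskeleton that drives the motion of microglial processes.

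Total counts per library ranged from 3992885 to 5712376, of which 1266782 to 2496096 remained outside the 6 most abundant features and the mitochondrially encoded genes. All 10 genes passed the filter on low counts. Levels below are in CPM, each gene's count as a share of the library's total after TMM scaling between libraries, given per library and as mean ± SD with n = 3, and a gene is called changed at an adjusted p under 0.05 in edgeR's quasi-likelihood test over 12545 genes. The label of the cells was checked against 18 genes of homeostatic microglia, which summed to 13899 to 16164 CPM in control, 3087 to 4631 in acute, 10806 to 11018 in remission and 9974 to 10854 in chronic libraries. Of these, 17 were lower in acute than in control mice and 1, Gpr84, was higher, and none was at 0 in any group. Markers of 15 monocyte and recruited macrophage genes summed to 41.0 to 93.2 CPM in control and 2204 to 3139 in acute libraries, with Ly6c2, Chil3, S100a4 and Gpr141 among those at 0 in control mice, and to 136 to 159 in remission and 139 to 187 in chronic libraries. Ptprc, which encodes the sorting antigen CD45, stood at 422 ± 36.1, 424 ± 23.1, 427 ± 51.7 and 377 ± 41.2 CPM in control, acute, remission and chronic mice. Itgam, which encodes the sorting antigen CD11b, was less even, at 132 ± 14.7, 86.0 ± 21.1, 100 ± 18.3 and 175 ± 48.6 CPM in the same order. In such bulk samples, fewer cells of a type and less RNA per cell cannot be told apart.

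Compared per length, the 10 genes spanned a wide range in control mice. Inpp5d was the most abundant at 83.6 ± 4.29 CPM per kb of annotated exon. Bin1 at 52.5 ± 4.02 and Plcg2 at 49.9 ± 4.32 CPM per kb came next and did not differ beyond their spread. Picalm followed at 25.9 ± 1.03, then Abi3 at 14.0 ± 1.05, Ptk2b at 12.9 ± 0.370 and Rin3 at 10.1 ± 0.260 CPM per kb, of which Abi3 and Ptk2b lay within about 1 SD of each other. Abca7 at 7.61 ± 1.43 and Sorl1 at 7.49 ± 1.08 CPM per kb were indistinguishable, and Cass4 was lowest at 3.06 ± 1.08 CPM per kb. In acute mice the order was Inpp5d at 49.0 ± 2.90, Plcg2 at 36.1 ± 6.30, Picalm at 31.9 ± 3.45, Sorl1 at 23.9 ± 1.10, Bin1 at 18.03 ± 3.53, Ptk2b at 15.5 ± 1.43, Abca7 at 13.9 ± 2.24, Rin3 at 8.98 ± 0.940, Abi3 at 6.82 ± 1.15 and Cass4 at 0.855 ± 0.136 CPM per kb, so Bin1 had dropped below Sorl1. Lengths are those of all annotated exons merged, which understates a gene whose long or rare exons are little used, Picalm with 15.7 kb among them.

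The acute phase split the set. Bin1, Inpp5d, Plcg2, Abi3 and Cass4 fell, Sorl1 and Abca7 rose, and Picalm, Ptk2b and Rin3 were not called, although the reads of Abi3 are not separable from those of Zfp652, with which it shares exons. That is 7 of 10 called, where 43.7% of all genes were: 5 members lower, where 20% of all genes tested were called lower, and 2 higher, where 23.7% were called higher. The median log2 fold change of the 10 genes was -0.32, against 0.02 over all genes tested. In remission and in the chronic phase Bin1, Inpp5d, Plcg2 and Abi3 were not called against control, while Cass4 stayed low.

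**Figure D1:**
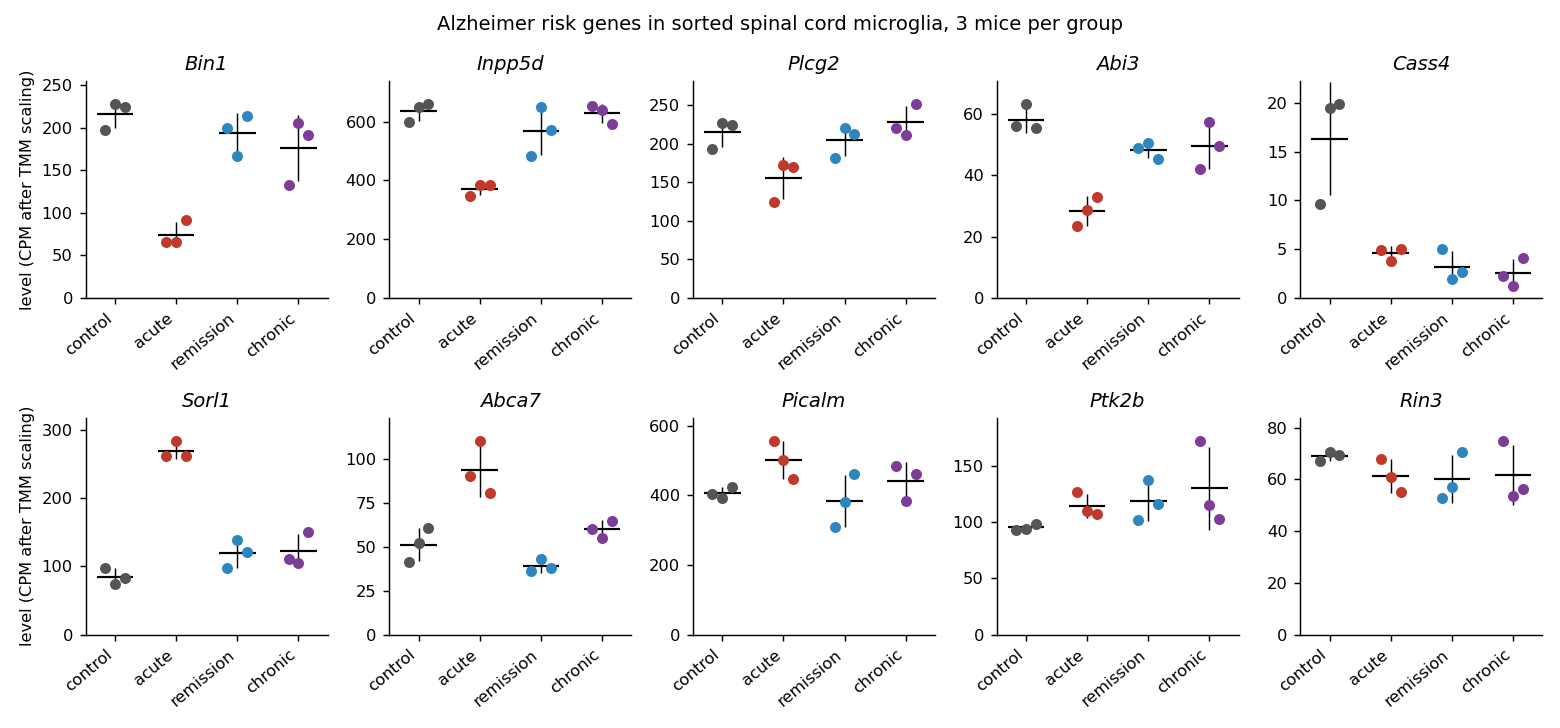
Level of each gene in each library (points, CPM after TMM scaling, linear axes from 0), with the mean (horizontal bar) and SD (vertical bar) of the 3 mice of each group. Bin1, Inpp5d, Plcg2 and Abi3 are low in the acute group alone, and Cass4 is below control in all 3 disease groups. Sorl1 and Abca7 are highest in the acute group. Picalm, Ptk2b and Rin3 were not called in the test of any difference among the 4 groups. Abi3 shares most of its exon sequence with Zfp652, so its values are uncertain.

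Inpp5d and Plcg2 both act in ITAM signalling, with opposing roles. Inpp5d (ENSMUSG00000026288, GRCm38 chromosome 1, 87620312 to 87720507, plus strand) stood at 599, 649 and 659.6 CPM in the 3 control mice, 347, 385 and 385 in acute, 485, 651 and 573 in remission and 654, 640.3 and 591 in chronic mice. The acute libraries all lay below every other library, whereas control, remission and chronic libraries overlapped. Its log2 fold change in acute against control mice was -0.77 ± 0.13 SE (adjusted p 4.82e-05). It was higher again in remission than in the acute phase by 0.61 ± 0.13 (adjusted p 0.000737) and in the chronic than in the acute phase by 0.75 ± 0.13 (adjusted p 0.000134). Chronic against control mice gave -0.02, with a 95% interval of -0.28 to 0.24 that holds for TMM scaling. With library totals alone the value was -0.37, outside that interval, and was not called (adjusted p 0.0935).

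Plcg2 (ENSMUSG00000034330, chromosome 8, 117498291 to 117635142, plus strand), the lipase that releases calcium and diacylglycerol signals, moved the same way by less. It stood at 193, 227 and 224 CPM in control, 123.995, 172 and 169 in acute, 181, 220.0 and 212 in remission and 220.4, 211 and 251 in chronic mice. Every acute library lay below every other library, and acute replicate 1 was the lowest of all. The acute log2 fold change was -0.47 ± 0.14 (adjusted p 0.00972), but without acute replicate 1 it was -0.33 with an adjusted p of 0.0625. The rise from acute to remission, 0.40 ± 0.14 (adjusted p 0.0296), was not called without acute replicate 1 (0.165), remission replicate 2 (0.0846) or remission replicate 3 (0.0835), nor with the number that ends each title as a covariate (0.0726). The rise from acute to chronic, 0.55 ± 0.14 (adjusted p 0.00521), was lost with that covariate alone (0.0645). The title number was 2 for acute replicates 1 and 2, control replicate 1 and remission replicate 1, and 1 for every other library. It was thus uneven between acute and chronic mice, and the covariate takes up part of that comparison.

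Within each library these genes can be compared without any scaling between libraries. The ratio of Inpp5d to Plcg2, each per kb of exon, was 1.75, 1.62 and 1.67 in control, 1.58, 1.26 and 1.29 in acute, 1.51, 1.67 and 1.53 in remission and 1.68, 1.71 and 1.33 in chronic libraries. The acute ratios lay below all control ratios but overlapped those of remission and chronic libraries. Across the 12 libraries the centred log2 profiles of these genes were the closest pair of all 45 pairs among the 10 genes, with a root mean square difference of 0.16.

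The 250 bases before the annotated start of each gene were read for 7 of the 10 members, those with an entry in the RefSeq promoter table of GRCm38.p6, and searched on both strands for AGGAAGT (an ETS family site of the kind bound by PU.1), TGANTCA (AP-1), TTCNNNGAA (STAT), CACGTG (E-box) and the interferon-stimulated response element. These matches occur in 7.69%, 6.75%, 7.02%, 6.02% and 2.98% of all 32851 windows of that length. The windows of Inpp5d and Plcg2, which fell together, of Cass4, which stayed low, and of Sorl1, which rose, are shown 5′ to 3′ so that their starts can be compared, with matched letters in capitals. The windows are chr1:87620062-87620311 on the plus strand, chr8:117498025-117498274 on the plus strand, chr2:172393394-172393643 on the plus strand and, for the outer of the Sorl1 starts, chr9:42124298-42124547 on the minus strand.
Inpp5d: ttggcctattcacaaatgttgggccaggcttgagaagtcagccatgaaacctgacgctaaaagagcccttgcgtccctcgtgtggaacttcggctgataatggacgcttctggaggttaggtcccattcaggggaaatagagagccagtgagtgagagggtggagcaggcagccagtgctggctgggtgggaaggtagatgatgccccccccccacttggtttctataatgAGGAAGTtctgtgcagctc
Plcg2: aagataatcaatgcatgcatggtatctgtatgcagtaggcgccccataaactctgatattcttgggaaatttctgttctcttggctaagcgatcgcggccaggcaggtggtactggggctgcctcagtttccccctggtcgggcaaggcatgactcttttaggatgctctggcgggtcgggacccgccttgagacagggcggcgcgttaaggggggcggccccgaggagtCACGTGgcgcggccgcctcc
Cass4: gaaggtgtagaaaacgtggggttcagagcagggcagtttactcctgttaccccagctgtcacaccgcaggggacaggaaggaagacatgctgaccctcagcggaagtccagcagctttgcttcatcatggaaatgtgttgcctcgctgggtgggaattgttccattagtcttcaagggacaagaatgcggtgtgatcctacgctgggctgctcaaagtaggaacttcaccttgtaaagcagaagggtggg
Sorl1: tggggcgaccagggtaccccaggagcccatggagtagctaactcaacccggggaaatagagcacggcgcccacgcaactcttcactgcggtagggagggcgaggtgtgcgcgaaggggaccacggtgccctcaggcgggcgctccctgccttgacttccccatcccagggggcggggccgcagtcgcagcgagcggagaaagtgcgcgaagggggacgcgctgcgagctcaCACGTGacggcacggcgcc

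Inpp5d held the ETS letters, beginning 19 bases before the start. Plcg2 and Sorl1 each held the E-box letters, beginning 20 and 19 bases before the start, although their RNA moved in opposite directions at the acute phase, and Picalm held them 191 bases before its start. Cass4, Abca7 and Rin3 held none of the 5 patterns in their windows. A second Sorl1 start, inside the gene, held a STAT match 63 bases before it. These are letters in sequence, and nothing in the counts bears on which factors bind there.

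Bin1 makes amphiphysin 2, which bends membrane through its BAR domain. Among the 4 genes that fell at the acute phase and were higher again afterwards it fell the most. Bin1 (ENSMUSG00000024381, chromosome 18, 32377230 to 32435737, plus strand) stood at 197, 227 and 224 CPM in control, 65.6, 66.1 and 91.0 in acute, 199, 167 and 214 in remission and 132, 206 and 191 in chronic mice. The acute libraries lay far below all others, and chronic replicate 1 was the lowest of the rest. The log2 fold change was -1.54 ± 0.17 in acute against control mice (adjusted p 3.77e-07), 1.38 ± 0.17 in remission against acute mice (adjusted p 2.93e-06) and 1.25 ± 0.17 in chronic against acute mice (adjusted p 1.38e-05). Chronic against control mice was not called (-0.29 ± 0.16, adjusted p 0.261), although with library totals in place of TMM scaling it was (-0.66, adjusted p 0.00407). Bin1 is also known from oligodendrocytes and neurons. The 11 oligodendrocyte and myelin markers summed to 89.0 to 113 CPM in control, 459 to 619 in acute, 72.1 to 721 in remission and 84.2 to 84.8 in chronic libraries, and none of them was at 0 in control or acute mice. Their part in the values of Bin1 was not tested.

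Abi3, an adaptor related to the ABI subunits of the WAVE complex that starts actin branching, fell at the acute phase and was higher again afterwards. Abi3 (ENSMUSG00000018381, chromosome 11, 95830074 to 95842476, minus strand) stood at 56.0, 63.3 and 55.5 CPM in control, 23.3, 28.8 and 32.9 in acute, 49.1, 50.7 and 45.4 in remission and 42.0, 57.4 and 49.7 in chronic mice. Acute libraries were again separate from all others, and the 3 remission libraries lay just below the control ones without being called (adjusted p 0.306). Its acute log2 fold change was -1.04 ± 0.15 (adjusted p 1.34e-05), and the rises from there to remission and to the chronic phase were 0.78 ± 0.15 and 0.82 ± 0.15 (adjusted p 0.000521 and 0.000446). With library totals alone it was also called lower in chronic than in control mice (adjusted p 0.0151). The annotation places 70.1% of Abi3's merged exon sequence within exons of Zfp652, a zinc finger gene on the opposite strand, and the libraries do not keep the strand. Zfp652 itself fell from 167 ± 6.46 to 81.6 ± 5.85 CPM (-1.04 ± 0.16, adjusted p 2.68e-05), a gene looked up after the overlap was seen, and reads of these neighbours cannot be told apart where they overlap. The level of Abi3, its fold changes and its calls are therefore uncertain, and each count of members that includes Abi3 carries that limit.

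Cass4, a scaffold of the CAS family at focal adhesions, was lower in all 3 disease groups, the only member of which this held. Cass4 (ENSMUSG00000074570, chromosome 2, 172393794 to 172433757, plus strand) had only 68, 111 and 92 reads in control, 19, 14 and 17 in acute, 27, 10 and 10 in remission and 10, 7 and 16 in chronic libraries, or 9.67, 19.5 and 19.9, 4.93, 3.73 and 5.04, 4.98, 1.91 and 2.66 and 2.27, 1.26 and 4.08 CPM. Each control library exceeded every disease library, and control replicate 1 was the lowest of the controls. Against control mice the log2 fold change was -1.82 ± 0.39 in acute (adjusted p 0.000697), -2.32 ± 0.39 in remission (adjusted p 0.000443) and -2.72 ± 0.41 in chronic mice (adjusted p 8.57e-05), comparisons that share the same control mice. These calls were kept in all 21 alternative settings, 9 of processing and 12 that each left out a library. It was the 1 member called lower in remission, where 3.25% of genes were, and the 1 called lower in the chronic phase, where 5.17% were. The disease groups were not called against each other, with an adjusted p of 0.162 between chronic and acute mice, or 0.0459 without chronic replicate 3. An antisense gene, Gm14455, covers 21.2% of its exons and averaged 1.25 reads per library.

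**Figure D2:**
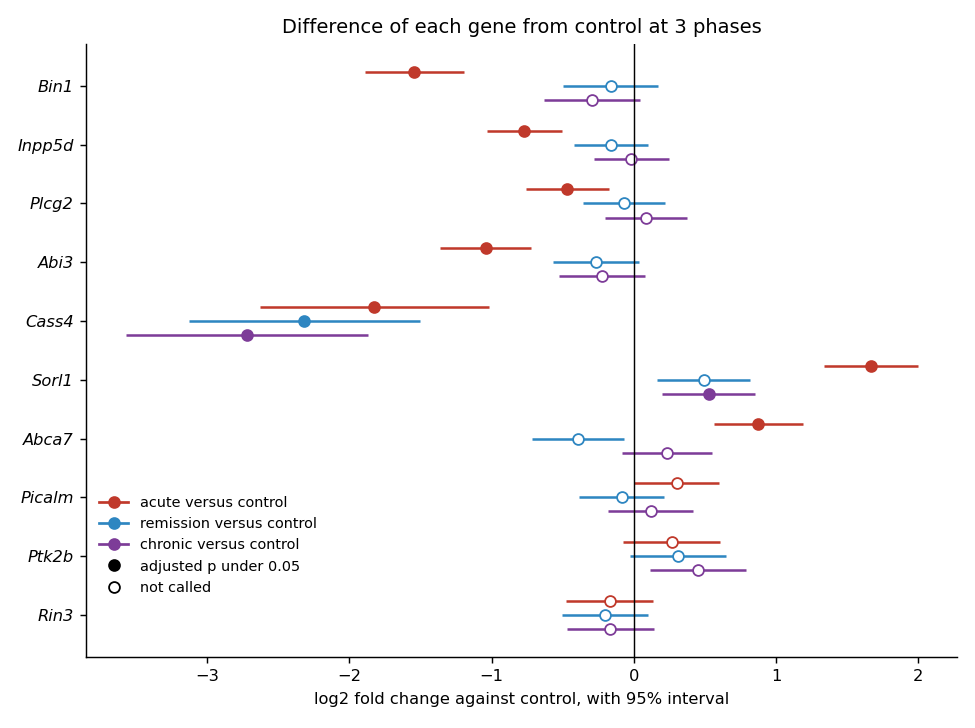
Log2 fold change of each gene against control in the acute, remission and chronic groups, with its 95% interval from the edgeR fit; filled points passed an adjusted p under 0.05. The 3 comparisons share the control mice. Bin1, Inpp5d, Plcg2 and Abi3 leave 0 in the acute group alone, Cass4 lies between -1.82 and -2.72 in all 3, and Sorl1 and Abca7 stand to the right of 0 in the acute group, with Sorl1 filled in the chronic group as well. The values of Abi3 may include reads of Zfp652.

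Sorl1, the sorting receptor SORLA that works with retromer to return cargo from endosomes, rose the most of the set. Sorl1 (ENSMUSG00000049313, chromosome 9, 41964720 to 42124297, minus strand) stood at 97.9, 73.6 and 83.1 CPM in control, 263, 285 and 263 in acute, 97.3, 139 and 122 in remission and 111, 106 and 151 in chronic mice. The 3 acute libraries were tightly grouped and far above every other library. The log2 fold change in acute against control mice was 1.67 ± 0.16 (adjusted p 4.46e-08), followed by changes of -1.18 ± 0.16 from acute to remission (adjusted p 6.46e-06) and -1.14 ± 0.16 from acute to chronic mice (adjusted p 1.38e-05).

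In the chronic phase it was higher by 0.53 ± 0.16 (adjusted p 0.0259), the 1 member called higher there, where 9.57% of genes were. That call ended without control replicate 2 (0.149), control replicate 3 (0.0899) or chronic replicate 3 (0.182) and with library totals alone (0.595). In remission the difference was 0.49 ± 0.16 and was not called (adjusted p 0.0529). It passed in DESeq2 (0.0437) and limma-voom (0.0295), and without control replicate 1 (0.0456), remission replicate 1 (0.0158), chronic replicate 1 (0.0457) or chronic replicate 3 (0.0266). It did not pass when any other library was left out, nor with the title number as a covariate. With library totals alone it was 0.24 and was not called (0.422). No member was called higher in remission in the fit as planned, against 6.06% of genes. In that comparison 3 members had an unadjusted p under 0.05: Sorl1, which was higher, and Cass4 and Abca7, which were lower.

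Set against Bin1 in the same library, Sorl1 changed places. The ratio of Sorl1 to Bin1, each per kb of exon, was 0.181, 0.118 and 0.135 in control, 1.46, 1.57 and 1.05 in acute, 0.178, 0.304 and 0.207 in remission and 0.305, 0.187 and 0.288 in chronic libraries. All acute libraries held more Sorl1 than Bin1 per length and all others held less, and the ratio does not depend on scaling between libraries. These genes were paired after their values were seen, as the largest rise and the largest fall among well-counted members.

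Abca7, a lipid transporter of the ABC A-subfamily tied to phagocytosis, rose at the acute phase by a smaller factor. Abca7 (ENSMUSG00000035722, chromosome 10, 79996494 to 80015572, plus strand) stood at 41.4, 52.0 and 60.6 CPM in control, 90.3, 111 and 80.9 in acute, 36.2, 43.0 and 37.7 in remission and 60.4, 55.1 and 65.0 in chronic mice. Acute libraries were the highest and remission libraries, apart from overlap with control replicate 1, the lowest. Remission against control gave -0.39 ± 0.16 and was not called (adjusted p 0.132), but library totals alone gave -0.62 and a call (0.0186). Abca7 rose by 0.88 ± 0.15 in acute mice (adjusted p 8.5e-05), which became 0.34 and was not called with library totals alone (0.0903). From acute to remission its log2 fold change was -1.27 ± 0.16 (adjusted p 2.61e-06), and from acute to chronic -0.65 ± 0.15 (adjusted p 0.00303).

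Between remission and the chronic phase Abca7 came closest to a call of any member. All 3 chronic libraries exceeded all 3 remission libraries, with a log2 fold change of 0.62 ± 0.16 and an adjusted p of 0.0521. It passed in DESeq2 (0.0239) and without remission replicate 2 (0.0426) or chronic replicate 2 (0.0457). It did not pass in limma-voom or when any other library was left out, and library totals alone gave 0.50, not called (0.162). In the fit as planned 0 of the 10 genes were called between these phases, where 0.941% of genes were called higher and 0.263% lower (1.2% in all), and Abca7 was the 1 member with an unadjusted p under 0.05.

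The rises of Sorl1 and Abca7 came in libraries that also held markers of other blood cells. Beside the monocyte genes above, 14 T and NK cell genes summed to 0.569 to 2.98 CPM in control and 111 to 156 in acute libraries, with Cd3e, Cd3d, Cd3g, Cd4, Cd2 and Nkg7 at 0 in control mice. Of 14 neutrophil genes, 13 summed to 0.350 to 0.647 CPM in control and 128 to 443 in acute libraries. The other, the receptor Csf3r, stood at 348 to 456 CPM in control libraries and 116 to 155 in acute ones. The 8 B cell genes summed to 53.3 to 78.7 and 17.4 to 22.6 CPM, with Ms4a1 at 0 in both groups, the 8 dendritic cell genes to 24.2 to 35.4 and 24.9 to 36.0 CPM, and 8 genes of border macrophages, which line vessels and meninges, to 0.711 to 1.08 and 70.0 to 116 CPM, with Lyve1 at 0 in both. Ly-6C, on which classical monocytes were to be gated out, is encoded by genes that include Ly6c2, detected in acute libraries. The part of these cells in the acute values of Sorl1 and Abca7, or in the falls of the 5 other genes, was not tested. In remission and chronic libraries the T and NK cell sums were 2.10 to 7.75 and 1.79 to 2.52 CPM, and those of the 13 neutrophil genes were 1.06 to 62.2 and 0.180 to 12.2 CPM. The 8 astrocyte genes summed to 61.4 to 78.3 CPM in control, 198 to 245 in acute, 97.7 to 209 in remission and 115 to 202 in chronic libraries. Their part in the values of Cass4 and Sorl1 in the later phases was not tested either.

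Picalm, Ptk2b and Rin3 were the members with no call in the test of any difference among the 4 groups (adjusted p 0.125, 0.133 and 0.599), where 44% of all genes were called. The other 7 members were called in that test. Picalm (ENSMUSG00000039361, chromosome 7, 90130213 to 90213465, plus strand), a clathrin adaptor that helps form endocytic vesicles, stood at 402, 393 and 425 CPM in control, 556, 500.3 and 447 in acute, 309, 381 and 460.3 in remission and 483, 382 and 461 in chronic mice. After TMM scaling acute libraries lay just above the control ones, by 0.30 ± 0.14 (adjusted p 0.0962, or 0.041 in limma-voom). With library totals alone the value was -0.25, also not called (0.191). The drop from acute to remission, -0.39 ± 0.14, passed (adjusted p 0.0401) although the groups overlapped. That call was lost in 10 of the 21 alternative settings, among them library totals alone (0.713) and leaving out control replicate 1, 2 or 3 (0.0666, 0.0707 and 0.0702), acute replicate 1 or 2 (0.137 and 0.0862) or remission replicate 1 or 2 (0.244 and 0.109).

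Ptk2b (ENSMUSG00000059456, chromosome 14, 66153257 to 66281052, minus strand) encodes PYK2, a calcium-responsive kinase related to focal adhesion kinase. It stood at 93.5, 94.5 and 98.6 CPM in control, 127, 109.8 and 108 in acute, 102, 137 and 116 in remission and 173, 116 and 103 in chronic mice. After TMM scaling every disease library lay above every control library, yet no comparison with control was called: the log2 fold changes were 0.27 ± 0.16, 0.31 ± 0.16 and 0.45 ± 0.16 in acute, remission and chronic mice, with adjusted p of 0.197, 0.27 and 0.0686. Library totals alone gave -0.29, 0.07 and 0.11 in the same order, also not called (0.212, 0.843 and 0.708). Chronic replicate 1 was the highest library of all, and the chronic comparison passed without chronic replicate 3 (adjusted p 0.0177).

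Rin3 (ENSMUSG00000044456, chromosome 12, 102283048 to 102390855, plus strand) encodes an activator of the early endosomal GTPase RAB5 that also binds BIN1. It stood at 67.1, 70.6 and 69.5 CPM in control, 68.0, 61.0 and 55.1 in acute, 52.8, 57.2 and 70.7 in remission and 74.9, 53.7 and 56.4 in chronic mice, with all groups overlapping. The 95% interval of its log2 fold change was -0.48 to 0.14 in acute, -0.51 to 0.10 in remission and -0.47 to 0.14 in chronic mice, each of which includes 0. With library totals alone Rin3 was called lower in acute (-0.72, adjusted p 0.00102) and chronic mice (-0.52, adjusted p 0.03). Under that scaling the median of all genes was -0.53 in acute and -0.37 in chronic against control mice. The share of higher calls in the acute comparison went from 54.3 to 22.8%. With library totals alone the acute values became -1.32 for Inpp5d, -1.01 for Plcg2, -1.60 for Abi3 and 1.10 for Sorl1, all still called.

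The disease phases were also compared with each other, and these comparisons share the acute mice. From acute to remission 4 members rose (Bin1, Inpp5d, Plcg2 and Abi3), where 17.6% of genes did, and 3 fell (Sorl1, Abca7 and Picalm), where 19.4% did and 36.9% changed in all. From acute to chronic the same 4 rose, where 13.3% of genes did, and Sorl1 and Abca7 fell, where 15.5% did (28.8% in all). Against control, 1 member was called in remission and 2 in the chronic phase, where 9.31% and 14.7% of all genes were called.

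Each of the 10 genes has relatives with similar proteins, and they were named for that, not for how they moved. Bin2, the BAR-domain relative of Bin1 known from white blood cells, was about as abundant per length as Bin1 in control mice (56.6 ± 5.44 CPM per kb) and was lower in acute mice, its log2 fold change being -1.08 ± 0.22 (adjusted p 0.000995) beside -1.54 for Bin1, a difference that was not tested. Inppl1, which encodes SHIP2, stood at 12.2 ± 1.03 CPM per kb in control mice, below Inpp5d, and its acute log2 fold change of -0.76 ± 0.15 (adjusted p 0.000344) was close to that of Inpp5d. Plcg1 was far below Plcg2 at 4.78 ± 0.645 CPM per kb, and its acute value of 0.40 ± 0.16 passed narrowly (adjusted p 0.0468). It turned to -0.17 with library totals alone and was not called in DESeq2 (0.0816) or without control replicate 1, 2 or 3, acute replicate 1 or 2, or remission replicate 1, 2 or 3 (0.0535 to 0.232). Of the relatives of Abi3, Abi1 stood at 14.0 ± 1.82 CPM per kb and was not called at the acute phase (0.08 ± 0.16, adjusted p 0.7), although library totals alone gave -0.48 and a call, while Abi2 was low at 1.75 ± 0.374 CPM per kb.

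In the sorting receptor and CAS families the acute change of the relative had the opposite sign. Sort1, which encodes sortilin, fell from 190.2 ± 2.17 to 83.1 ± 18.3 CPM in acute mice (-1.19 ± 0.17, adjusted p 1.11e-05) as Sorl1 rose, and stood at 199.8 ± 39.3 CPM in chronic mice. Per length, Sort1 exceeded Sorl1 in control mice at 25.1 ± 0.287 CPM per kb and lay below it in acute mice at 10.98 ± 2.41. Nedd9, a CAS scaffold like Cass4, rose from 4.78 ± 0.909 to 27.8 ± 5.61 CPM in acute mice (2.52 ± 0.30, adjusted p 8.07e-07) and was at 2.69 ± 1.02 CPM in chronic mice. The other CAS genes, Bcar1 and Efs, averaged 0.144 and 0.203 CPM in control mice and did not pass the filter.

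Abca1, the cholesterol exporter related to Abca7, had another time course. It rose from 104 ± 22.8 to 221 ± 8.88 CPM in acute mice (1.09 ± 0.25, adjusted p 0.00363, and 0.102 with library totals alone) and stood at 439.8 ± 25.3 in remission and 539 ± 224 CPM in chronic mice, so it was highest where Abca7 had come down. Rin2 fell at the acute phase (log2 fold change -1.58 ± 0.15, adjusted p 3.19e-08) from a control level per length close to that of Rin3, 10.2 ± 1.01 CPM per kb. Rin1, Ptk2 and Snap91, the neuronal relative of Picalm, were all below 1 CPM per kb in control mice.

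**Figure D3:**
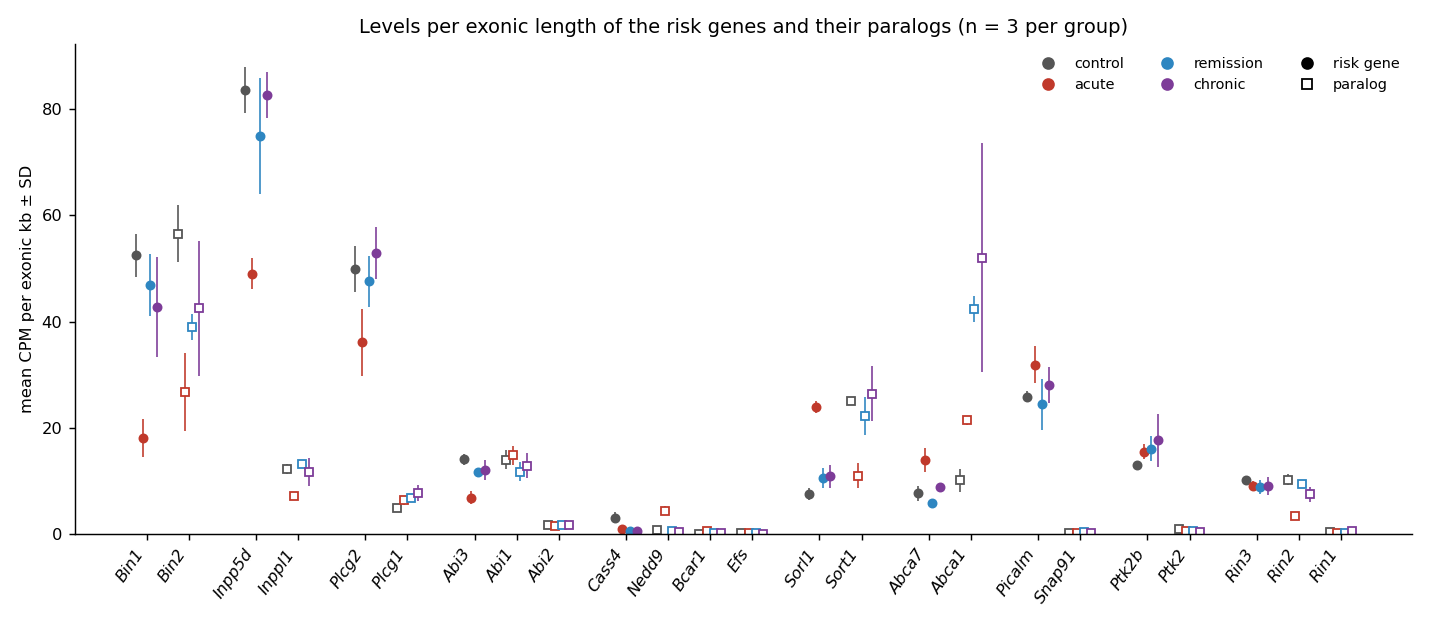
Mean level per kb of merged exon (CPM per kb, linear axis from 0, bars are SD, n = 3 mice) of the 10 risk genes (filled circles) and their relatives (open squares) in the 4 groups. Sort1 and Sorl1 exchange places in the acute group, Bin2 falls with Bin1, and Abca1 is highest in remission and chronic mice while Abca7 peaks in acute mice. Abi3 shares most of its exon sequence with Zfp652.

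Genes that work beside the 10 were counted in 7 lists, against a median log2 fold change of 0.02 and calls of 23.7% higher and 20% lower over all genes. Of 46 genes of ITAM receptor signalling, 11 were higher and 18 lower in acute mice, and the median log2 fold change was -0.13. Trem2, the receptor upstream of Plcg2, fell from 349.9 ± 26.8 to 90.9 ± 26.8 CPM (-1.95 ± 0.18, adjusted p 7.26e-08) and was back at 419.5 ± 40.8 CPM in remission. Rasgrp3, which passes the diacylglycerol signal to RAS, fell from 119 ± 15.8 to 19.5 ± 6.28 CPM, whereas the Src-family kinase Fgr rose from 8.31 ± 2.33 CPM by 3.08 ± 0.20 on the log2 scale (adjusted p 1.69e-10).

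In the clathrin and endosomal lists more genes were higher than lower at the acute phase, and with library totals alone more were lower. Of 39 clathrin genes tested 15 rose and 5 fell (median 0.27), the adaptor Dab2 rising from 1.17 ± 0.319 to 42.6 ± 8.89 CPM and remaining at 16.3 ± 4.11 CPM in chronic mice. Hip1, a partner of clathrin, rose from 9.94 ± 1.297 to 32.7 ± 9.06 CPM, and the BAR protein gene Snx18 fell from 147 ± 15.4 to 80.6 ± 1.46 CPM. Of 32 genes of endosomal sorting and retromer, 11 rose and 4 fell (median 0.28). Igf2r, a sorting receptor for lysosomal enzymes, rose from 2.33 ± 0.825 to 69.6 ± 11.3 CPM, the late endosomal GTPase Rab7 from 33.0 ± 0.679 to 83.8 ± 12.3 CPM, and its regulator Tbc1d5 fell from 72.6 ± 2.02 to 31.4 ± 7.67 CPM. Of 21 genes around RAB5, 3 rose and 5 fell (median -0.02), with Rab5c rising from 27.2 ± 5.17 to 65.6 ± 6.55 CPM and its effector Eea1 from 15.97 ± 1.14 to 35.3 ± 5.74 CPM, beside the fall of Rin2.

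In the actin list more genes were higher than lower, but not with library totals alone. Of 25 genes of the WAVE complex, RAC and the ARP2/3 complex, 13 rose and 6 fell (median 0.48), and the ARP2/3 subunits Arpc5, Arpc2 and Arpc1b rose to 94.1 ± 6.21, 144 ± 24.03 and 243 ± 14.2 CPM from 25.8 ± 3.27, 62.8 ± 4.96 and 104 ± 8.91 CPM. The adhesion list was divided, with 9 of 28 genes higher and 8 lower (median 0.07), Zyx, a focal adhesion protein gene, rising from 48.1 ± 2.75 to 169.8 ± 33.7 CPM and Elmo1, which activates RAC during engulfment, falling from 321 ± 42.3 to 79.0 ± 9.20 CPM. Among 9 lipid exporters and their regulators 6 rose and 2 fell (median 0.83), and only 3 rose without acute replicate 2. Abcg1 rose from 20.1 ± 1.85 to 82.7 ± 4.52 CPM, and Abca9 fell from 537 ± 14.1 to 32.8 ± 15.6 CPM, and Mylip, which degrades the LDL receptor, from 101 ± 8.82 to 44.5 ± 9.27 CPM.

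The counts of these lists depend on the scaling. With library totals alone the acute numbers higher and lower became 5 and 29 for ITAM signalling, 5 and 13 for clathrin, 3 and 12 for endosomal sorting, 2 and 12 for RAB5, 7 and 8 for WAVE and RAC, 5 and 16 for adhesion and 2 and 2 for lipid exporters. Over all 12545 genes they became 1603 and 5427 under that scaling.

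**Figure D4:**
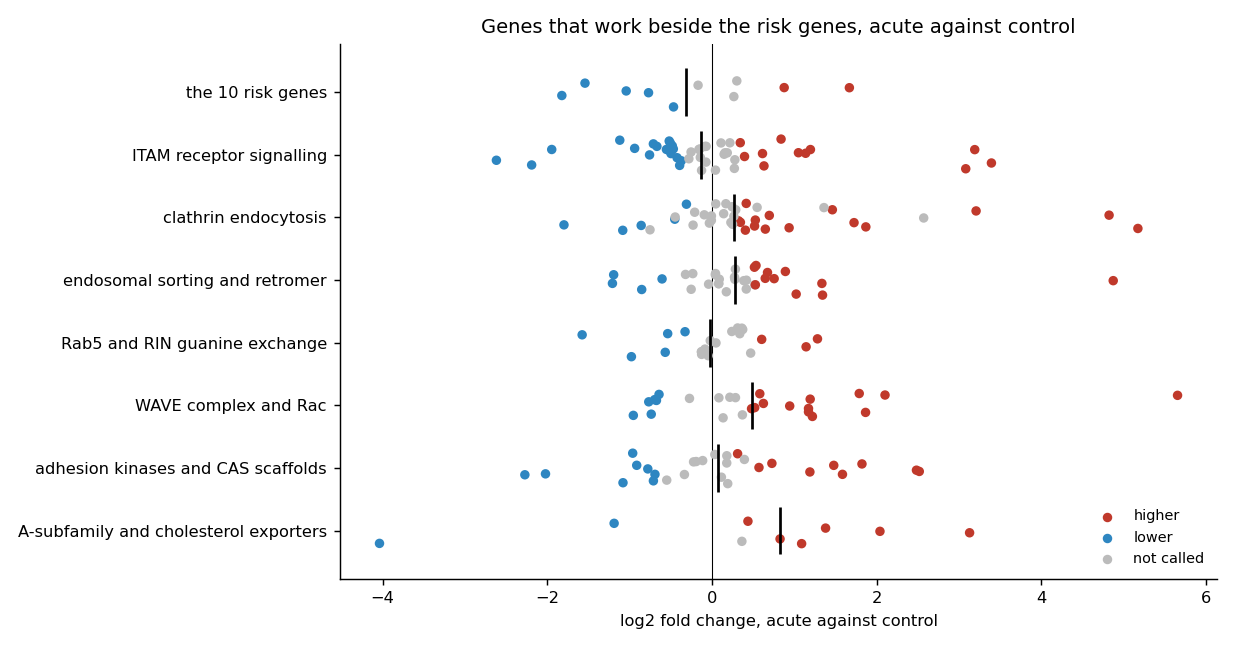
Log2 fold change in acute against control mice of each tested gene (points) of the 10 risk genes and of the 7 lists, coloured by call at an adjusted p under 0.05, with the median of each list as a black bar. The 10 risk genes have a median of -0.32, and the list medians run from -0.13 for ITAM signalling to 0.83 for lipid exporters.

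Other genes at human Alzheimer risk loci also moved in both directions. Of 30 tested, 13 rose and 8 fell at the acute phase (median 0.26), where 23.7% of all genes were called higher and 20% lower. With library totals alone 10 rose and 14 fell at the acute phase, where 1603 of all 12545 genes were called higher and 5427 lower. The transcription factor gene Mef2c fell from 314 ± 12.6 to 86.2 ± 10.6 CPM in acute mice and stood at 209.9 ± 33.6 CPM in chronic mice. Ctsb, which encodes the lysosomal protease cathepsin B, rose from 598 ± 87.6 to 1655 ± 183 CPM in remission and 1841 ± 442 CPM in the chronic phase (adjusted p 4.49e-06 and 9.03e-07). In these phases 1 and 2 of the 10 members were called against control, where 9.31% and 14.7% of all genes were.

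For each member, the genes with the most similar course were found as the smallest root mean square difference of centred log2 profiles over the 12 libraries, among 6348 other protein-coding genes with a mean of at least 10 CPM. For Bin1 these were Clstn1 at 0.16, Mef2c at 0.17, Specc1 at 0.17, in log2 units. For Inpp5d they were Tubgcp5 at 0.09, Nckap1l at 0.10, Mier2 at 0.12, the second encoding HEM1, the blood-cell subunit of the WAVE complex. For Abi3 they were Senp7 at 0.09, Tbxas1 at 0.10, Cmtm4 at 0.12. For Plcg2 they were Ganc at 0.10, Srsf9 at 0.11, Cpsf3 at 0.11, for Picalm Wapl at 0.08, Tirap at 0.10, Inpp5k at 0.11, for Ptk2b Mlxip at 0.13, Cnr2 at 0.13, Trpm7 at 0.13 and for Rin3 Trim11 at 0.10, Mkln1 at 0.10, Arid1b at 0.11. Matches to Sorl1 (Pcbp2 at 0.19, Sdhd at 0.19, Sdad1 at 0.20) and to Abca7 (Ssr3 at 0.17, Gnai2 at 0.17, Actb at 0.18) were looser. Cass4 had no close match, the nearest being Ccnd1 at 0.58, Cysltr1 at 0.60, Klf7 at 0.62, all of which were also lower in acute and chronic than in control mice by their fitted values. The distances are descriptions that large and noisy changes enlarge, and they carry no test.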

How the data were processed

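The authors deposited counts of reads per gene for each library and as 1 table of the series, and all 12 single files equalled their column. The tools behind these counts, per the submitters' processing notes, were HISAT2 with the GRCm38 build, SAMtools 1.3.1, Picard 2.6.4 and, for counting, HTSeq 0.6.1; counting settings and annotation release are not given in the sources used here. Per the labels' protocols, reverse transcription used random hexamers, and the transposase kit does not mark strand. IDs were named from GENCODE M21.

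In R 4.3.3, genes passing edgeR 4.0.16's default filter were fitted in 1 model of 4 groups (TMM scaling, robust quasi-likelihood test, Benjamini-Hochberg over 12545 genes), tested on simulated data. Levels are CPM over all 12 libraries' scaled totals. Alternatives were DESeq2 1.42.0, its size factors, library totals, limma 3.58.1 voom, other filters, 2-group fits, the title's final number, abundant features left out, and each library left out.

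Named were all members, 3 genes per list with the smallest p over 4 groups, close paralogs, and 3 genes of nearest profile (0.5 CPM added before logs). Members and lists were chosen with earlier results of these data known.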

Additional observations from a re-analysis of the deposited data

How the results depend on the processing

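The 13 counts of called members were recomputed under 9 alternative settings and with each of the 12 libraries left out. With library totals alone, 1 member was higher and 6 were lower at the acute phase, 2 were lower in remission, and 0 were higher and 4 lower in the chronic phase against control. Under that scaling 1603 of all 12545 genes were called higher and 5427 lower at the acute phase. In remission the numbers were 506 and 1045, and in the chronic phase 703 and 2538. In remission against control, 1 member (Sorl1) was higher with DESeq2's size factors, DESeq2, limma-voom, either filter, 2 groups alone or abundant features left out. Between remission and chronic mice, 1 member (Abca7) was higher with DESeq2's size factors, DESeq2, either filter or abundant features left out. Without a low-count filter, 2 were higher in the chronic phase against control. From acute to remission, 2 were lower with library totals alone, 2 groups alone or abundant features left out, where Picalm was not called. With the title number as a covariate Plcg2 was not called, leaving 3 higher from acute to remission and 3 from acute to chronic, and 6 differed among the 4 groups. In limma-voom 3 were higher at the acute phase, and 8 differed among the 4 groups there and with library totals alone.

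With a library left out, the range was 2 to 2 higher and 4 to 5 lower for acute, 0 to 1 higher and 1 to 1 lower for remission, and 0 to 1 higher and 1 to 1 lower for chronic against control mice. It was 3 to 4 higher and 2 to 3 lower from acute to remission, 4 to 4 and 2 to 3 from acute to chronic, 0 to 1 and 0 to 0 from remission to chronic, and 6 to 8 for any difference among groups. No member's called value changed sign. Of the other genes, Plcg1 turned to -0.17 and Abi1 to -0.48 with library totals alone at the acute phase. The settings for lists and other genes were chosen after seeing the data. Replicate numbers are record order and pair no mice. Cass4, with 7 to 111 reads per library, is the member whose size is least precise, and its SE of 0.39 to 0.41 against control exceeds that of all other members.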
